A study of Mus musculus with 3 samples.

Results

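The data cover 10 genes of Toll-like receptor sensing, the receptors Tlr1, Tlr2, Tlr3, Tlr4, Tlr7 and Tlr9, the co-receptors Cd14, Ly86 and Ly96, and the adaptor Myd88. They were taken by symbol from the 27998 genes of a single-cell count matrix, and all 10 were found. The matrix holds 7522 cells, sorted by fluorescence as YFP (+) from the lumbar cord. The donors were young adult C57BL/6 mice heterozygous for Cx3cr1-creER-yfp. All groups carried this 1 allele, in which the promoter of Cx3cr1, a chemokine receptor gene of microglia and of other myeloid cells, drives both the inducible Cre and YFP. Mice were naive, or were taken 24 h or 48 h after transection of the sciatic nerve, animals were pooled within a group, and each group gave 1 library. The libraries are told apart by the number 1, 2 or 3 at the end of a cell barcode. Which number stands for which time point is not given in the sources used here, so values are given for libraries 1, 2 and 3 without a time point.

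Toll-like receptors recognise molecular patterns of microbes and of damaged cells. TLR1, TLR2 and TLR4 act at the cell surface, where TLR1 pairs with TLR2 for lipopeptides and TLR4 binds lipopolysaccharide with MD-2, the product of Ly96, after CD14 has handed it over. TLR3, TLR7 and TLR9 sense nucleic acids in endosomes. MD-1, the product of Ly86, partners RP105, the product of Cd180, a relative of TLR4 without its signalling domain. MYD88 is the adaptor of nearly all these receptors, TLR3 being the exception, and leads to NF-kB and to transcription of cytokine genes. In the nervous system microglia are the main cells that use this system.

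Library 1 was small and shallow, with 609 cells and a median of 2218 UMIs (unique molecular identifiers, which count each captured molecule once) per cell. Libraries 2 and 3 held 3591 and 3322 cells at medians of 5952 and 5742 UMIs. All 10 microglia markers on the list used here, P2ry12 and Tmem119 among them, were present, and every cell had UMIs of at least 2 of them. Markers of other cells were scarce. The 6 monocyte markers summed to 8.935, 3.112 and 3.237 CPM (UMIs per 1000000 UMIs of the library) in libraries 1, 2 and 3, the 6 perivascular macrophage markers to 0.7446, 2.241 and 1.518, and Cd163, Lyve1, Ly6g and Cd3e had no UMI in any library. The 4 neutrophil markers summed to 0, 3.444 and 4.553 CPM. The 4 lymphocyte markers, Cd3e among them, summed to 0, 2.988 and 0.4553 CPM, with 68 UMIs of Nkg7 in library 2. The 3 endothelial markers, mostly Pecam1, summed to 34.99, 14.86 and 19.83 CPM. Cells with 2 or more monocyte, perivascular macrophage or neutrophil genes numbered 0, 14 and 13. Between 4.29% and 5.64% of cells had a UMI of the 4 oligodendrocyte markers after thinning to equal depth. As every cell carried microglia markers, no cell type that should lack the 10 genes was at hand, and the level that free RNA alone would give was not measured. A total of 25 barcodes occurred under more than 1 suffix, in 51 cells, and values without these cells stand in the closing section.

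The genes lie on 9 chromosomes in the GENCODE M21 annotation of GRCm38, where each is a protein-coding gene. Tlr1 is at chr5:64924679-64933563, Tlr2 at chr3:83836272-83841767, Tlr3 at chr8:45395665-45411080 and Tlr7 at chrX:167304929-167330558, all on the minus strand. Tlr4 is at chr4:66827584-66930284, Tlr9 at chr9:106222598-106226883, Ly86 at chr13:37345208-37419036 and Ly96 at chr1:16688051-16709611, all on the plus strand. Myd88, at chr9:119335934-119341411 on the minus strand, overlaps Slc22a14 on its own strand and Acaa1a on the other. Slc22a14 had 0 UMIs in each library, and Acaa1a had 112, 1587 and 1483 in libraries 1, 2 and 3. Tlr3 overlaps Gm45542 on the other strand. Of the 3332 stretches of 50 bases in the annotated transcripts of Tlr1, 15.4% also occur in transcripts of other genes, Tlr6 among them. The stretches were taken over whole transcripts and not only the 3′ ends that are read. What the sharing means for the counts of Tlr1 was not tested. Of the other 9 genes only Tlr4 shared any, 1 stretch of 5551.

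RefSeq promoter windows on GRCm38.p6, from 250 bases before to 50 after each start site, were found for 6 of the 10 genes. The 3 printed here are those with a match to the NF-kB consensus or to the interferon-stimulated response element, since NF-kB and interferon response genes are the outputs of this pathway. Matches are in capitals, Tlr2 and Tlr3 to the NF-kB consensus and Myd88 to the response element (GAAA, any 2 bases, GAAA), and each window is written on the minus strand of its chromosome, the strand of the gene.
Tlr2, chr3:83841559-83841858: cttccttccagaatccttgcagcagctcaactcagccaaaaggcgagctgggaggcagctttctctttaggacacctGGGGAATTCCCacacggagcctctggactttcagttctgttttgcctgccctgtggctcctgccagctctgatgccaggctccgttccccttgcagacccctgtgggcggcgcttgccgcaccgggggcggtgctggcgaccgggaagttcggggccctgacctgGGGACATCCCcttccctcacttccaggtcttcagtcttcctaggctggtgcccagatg
Tlr3, chr8:45410331-45410630: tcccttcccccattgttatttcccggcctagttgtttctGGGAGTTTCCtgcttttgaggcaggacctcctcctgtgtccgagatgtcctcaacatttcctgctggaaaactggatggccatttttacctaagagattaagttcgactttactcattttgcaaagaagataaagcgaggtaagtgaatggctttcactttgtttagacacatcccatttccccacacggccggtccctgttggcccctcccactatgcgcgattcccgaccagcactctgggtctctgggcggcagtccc
Myd88, chr9:119339969-119340268: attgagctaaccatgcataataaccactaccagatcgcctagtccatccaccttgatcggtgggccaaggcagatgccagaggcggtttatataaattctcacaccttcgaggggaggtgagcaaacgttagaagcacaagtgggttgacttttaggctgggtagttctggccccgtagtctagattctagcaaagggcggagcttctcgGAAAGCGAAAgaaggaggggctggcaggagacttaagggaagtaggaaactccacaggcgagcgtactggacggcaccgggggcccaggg
Searched on both strands, the NF-kB consensus was in 4.505% and the response element in 3.443% of 32851 such windows. The first capital run of Tlr2 holds overlapping matches on both strands. The windows of Tlr1 and Tlr9 held GAGGAAGT, the core bound by PU.1 in myeloid cells, which 3.202% of windows hold, and the window of Tlr9 also held the AP-1 element TGANTCA, present in 7.808%. A further window of Tlr1 held the E-box CACGTG, present in 7.15%, and none of the windows held the cyclic AMP response element TGACGTCA, present in 1.79%. None of the 6 motifs was in the window of Ly86. The windows of Tlr3 and Myd88, and the further window of Tlr1, lie wholly inside the GENCODE gene spans given above. The RefSeq start sites used for them are thus not the outer GENCODE gene starts. A match of letters in a window does not show binding.

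Ly86 was by far the most abundant of the genes. As each captured 3′ end is counted once, levels can be set beside each other without regard to transcript length. Ly86 had 1982 CPM (95% exact Poisson interval 1907–2059), 2537 (2516–2557) and 1706 (1688–1725) in libraries 1, 2 and 3, and made up 64.5%, 77.7% and 62.6% of all UMIs of the 10 genes. Library 2 was highest and library 3 lowest, with intervals apart. These intervals, and all others given here, cover counting error only, and with 1 library per group there is no replicate check of any difference.

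Cd14, the co-receptor that carries lipopolysaccharide to TLR4, came next in every library. It had 619.5 CPM (578.1–663.0), 358.6 (351.1–366.3) and 587.3 (576.6–598.1). Library 2 was low, and the intervals of libraries 1 and 3 overlapped. Tlr2 ranked below Cd14 in each library, with 102.0 CPM (85.64–120.6), 101.6 (97.64–105.7) and 139.9 (134.7–145.2), highest in library 3.

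The other genes lay between 24.0 and 90.1 CPM, except Tlr9. Ly96 had 90.1, 63.2 and 62.7 CPM, Tlr7, the receptor of single-stranded RNA, 81.9, 49.6 and 61.7, and Tlr3, the receptor of double-stranded RNA, 78.2, 50.4 and 44.0. These 3 had their highest level in library 1. Myd88 had 48.4, 48.1 and 53.8 CPM, Tlr4 33.5, 24.0 and 32.6, and Tlr1 26.8, 27.5 and 33.3. Tlr9, the receptor of unmethylated DNA, had only 13, 99 and 86 UMIs, or 9.679, 4.108 and 4.35 CPM. In library 1 the intervals of neighbours overlapped from Tlr2 to Tlr3 and from Myd88 to Tlr1. In library 2 Tlr3, Tlr7 and Myd88 could not be put in order, in library 3 neither could Ly96 and Tlr7, and in both Tlr1 and Tlr4 overlapped.

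**Figure D1:**
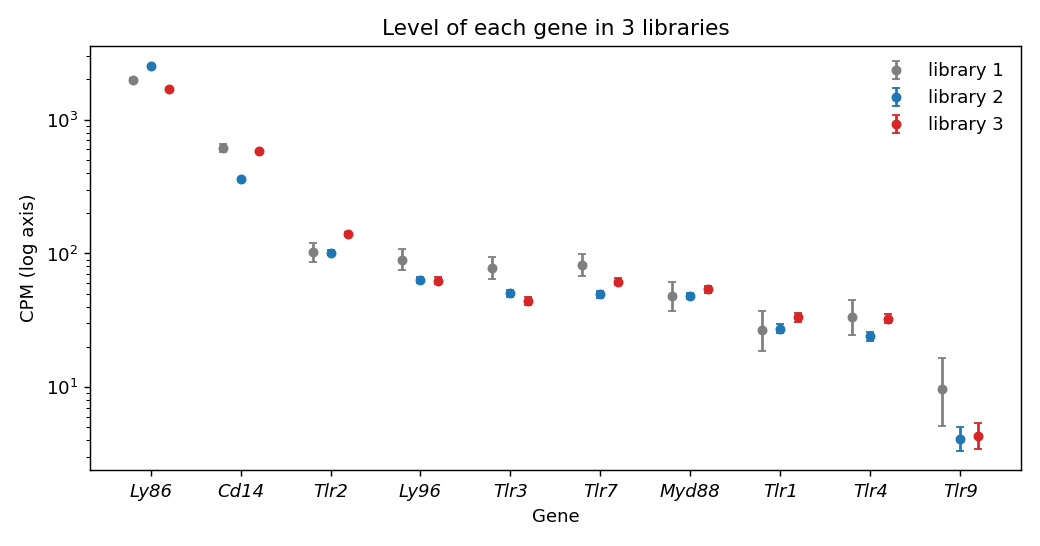
Level of each of the 10 genes in libraries 1, 2 and 3, in CPM on a log axis. Points are libraries and bars 95% exact Poisson intervals for counting error; Ly86 lies at 1706 or above and Tlr9 below 10 CPM in all 3, and Cd14 is lowest in library 2.

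The family genes outside this group ranged widely. Tlr13, which senses bacterial ribosomal RNA, had 74.5, 61.3 and 56.1 CPM and so stood above Tlr4 and Tlr1 in each library. Tlr6, the other partner of TLR2, had 14.9, 11.1 and 12.4 CPM, and Tlr12 had 13.4, 14.2 and 9.206. Tlr5 was at 1.489, 1.286 and 1.518 CPM, Tlr11 had 0, 15 and 3 UMIs, and Tlr8 and Lbp had none. Cd180, the partner of Ly86, had 329.8, 234.0 and 256.2 CPM.

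Because a share of cells with a UMI rises with depth, each cell was thinned at random to 2000 UMIs, which left out 201, 22 and 38 shallower cells and kept 408, 3569 and 3284. At this depth Ly86 was found in 96.6% (exact binomial interval 94.31–98.11), 98.5% (98.03–98.86) and 95.6% (94.79–96.23) of cells. Cd14 was found in 65.4% (60.60–70.05), 51.9% (50.24–53.54) and 67.0% (65.38–68.63). So nearly every cell had MD-1 transcripts, and 51.9% to 67.0% had a UMI of Cd14. Without thinning the shares were 91.5%, 100% and 99.6% for Ly86 and 68.0%, 87.9% and 94.0% for Cd14.

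Tlr2 was found in 17.4%, 17.9% and 22.5% of thinned cells, against 18.4%, 45.7% and 53.1% without thinning. Ly96 was found in 14.2%, 12.1% and 12.8%, Tlr7 in 13.5%, 9.64% and 11.5%, Tlr3 in 14.5%, 9.44% and 8.83%, and Myd88 in 8.82%, 9.11% and 9.71%. The shares of these 4 without thinning reached 33.4% (Ly96, library 2), 29.4% (Tlr7, library 3), 27.8% (Tlr3, library 2) and 27.1% (Myd88, library 2). Tlr4 was found in 6.86%, 5.16% and 6.88%, and Tlr1 in 4.41%, 4.88% and 6.27%. The 4 oligodendrocyte markers together were found in 5.64%, 5.35% and 4.29% of these cells, a similar range. How much free RNA added to the shares of Tlr4 and Tlr1 was not measured. Without thinning Tlr4 reached 17.6% and Tlr1 17.7% in library 3. Tlr9 was found in 1.23%, 0.757% and 0.670% of thinned cells and in at most 2.73% without thinning. The 4 astrocyte markers together were found in 0.735%, 0.701% and 0.518% of the same thinned cells, and no difference between libraries was read from Tlr9.

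Between libraries 3 and 2 the thinned shares of 4 of 10 genes had intervals apart, Tlr2, Tlr4 and Cd14 higher in library 3 and Ly86 lower. Over all genes with at least 20 thinned UMIs this held for 23.8%. Between libraries 2 and 1 it held for Tlr3 and Cd14, both lower in library 2, against 20.1% of genes, and between libraries 3 and 1 for Tlr3, lower in library 3, against 18.7%.

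**Figure D2:**
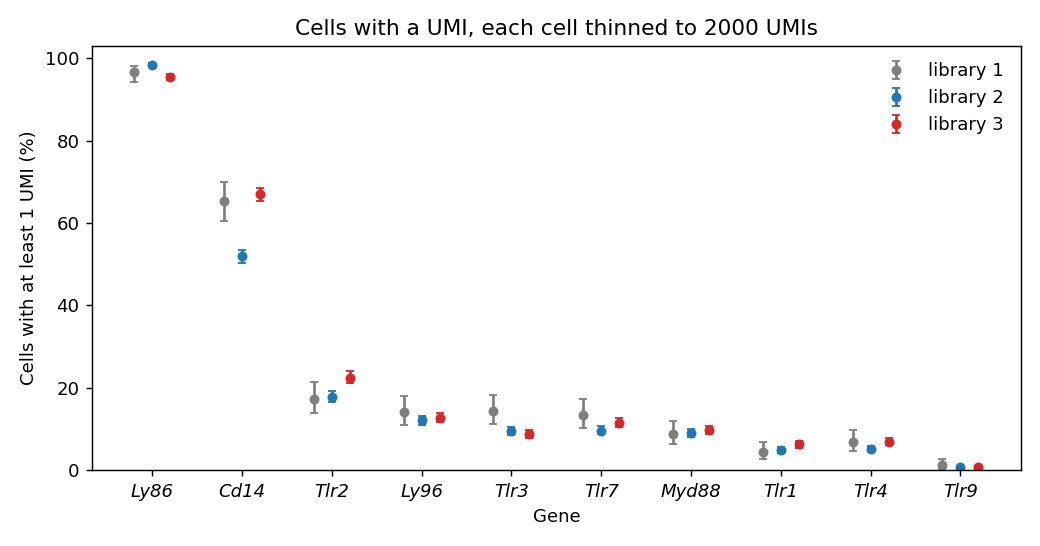
Share of cells with at least 1 UMI of each gene after every cell was thinned to 2000 UMIs, in percent. Points are libraries and bars 95% exact binomial intervals; Ly86 is found in over 95% of cells, Cd14 in 51.9% to 67.0%, and the other genes in under 23%.

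The spread of UMIs over thinned cells was near that of random sampling for the low genes, with a variance over mean of 0.89 to 1.15 for the 8 genes other than Cd14 and Ly86. Cd14 was more uneven in library 1, with 1.449 against 1.09 in library 2 and 1.094 in library 3. There 65.4% of cells had a UMI where an even Poisson spread at the same mean of 1.233 UMIs per cell would give 70.9%. Ly86 had a variance over mean of 1.293, 1.417 and 1.18. Before thinning, single cells reached 120 UMIs of Ly86 and 52 of Cd14, both in library 2.

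For the comparison of levels between libraries a gene was called where its CPM ratio, with 1 CPM added to both values, was at least 2-fold, among genes of at least 10 CPM in either library. Tlr9 missed that minimum everywhere, so 9 of 10 genes could be called. No gene of the 9 was called in any of the 3 pairs. Over all genes, 1.54% were called higher and 2.92% lower in library 3 than in library 2, 5.49% higher and 4.82% lower in library 2 than in library 1, and 3.71% higher and 6.34% lower in library 3 than in library 1. The 3 pairs share their libraries, so they are not independent of each other.

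Smaller differences between libraries 3 and 2, the deep ones, exceeded counting error for most of the 9 genes. Cd14 was 1.638-fold higher in library 3 (interval of the ratio 1.592–1.684), Tlr2 1.377-fold (1.303–1.454), Tlr4 1.358-fold (1.212–1.522), Tlr7 1.245-fold (1.149–1.350), Tlr1 1.212-fold (1.086–1.352) and Myd88 1.120-fold (1.030–1.218). Ly86 was lower in library 3 at 0.673-fold (0.6638–0.6817), and Tlr3, the receptor that signals without MYD88, at 0.874-fold (0.7998–0.9538). Ly96 stood at 0.992-fold (0.9194–1.070). So the interval lay above 1 for 6 genes and below 1 for 2, 8 of 9, where 63.4% of all genes tested had an interval without 1. Among all genes Cd14 stood at the 97.6th percentile of ratios, Tlr2 at the 93.7th, Tlr4 at the 92.8th and Ly86 at the 6.72nd. The median log2 ratio was 0.27 over the 9 genes and −0.03 over all 8258.

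Against the shallow library 1 most genes were lower in library 2. Cd14 was at 0.579-fold (0.5391–0.6223), Tlr7 at 0.605, Tlr3 at 0.644, Ly96 at 0.702 and Tlr4 at 0.717-fold (0.5290–0.9942), while Ly86 was 1.280-fold higher (1.231–1.331). Tlr1, Tlr2 and Myd88 lay at 1.025, 0.996 and 0.993-fold with intervals that held 1. These 6 of 9 intervals without 1 compare with 47.9% of all genes. In library 3 Tlr2 was 1.372-fold higher than in library 1 (1.155–1.640), Ly86 at 0.861-fold (0.8275–0.8958), Tlr7 at 0.754, Ly96 at 0.696 and Tlr3 at 0.563-fold, 5 of 9 against 47.7% of all genes, and Cd14 was at 0.948-fold (0.8835–1.018). The median log2 ratio of all genes to library 1 was −0.11 for library 2 and −0.12 for library 3. Relative to it, and under the other scalings in the closing section, none of the ratios with an interval without 1 changed its direction. Fewer cells and less depth moved with library 1. With each cell thinned to 2000 UMIs, the log2 ratio of Ly96 went from −0.50 to −0.25 for library 2. For library 3 it went from −0.52 to −0.18. That of Cd14 for library 2 moved less, from −0.79 to −0.69, and that of Ly86 for library 3 went from −0.22 to −0.29. What part cell number and depth had in these ratios was not tested further.

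With the 10 genes set aside, the pathway was described by 76 further genes. In library 3 against library 2, 57 of them had at least 10 CPM, 15 were at least 2-fold higher and 1 was lower, where all genes gave the shares of 1.54% and 2.92% above. The lists were drawn up with earlier results of these data known, so these counts are a description. None of the 3 further receptors and none of the 15 further adaptors and kinases passed 2-fold. Among adaptors and kinases the median log2 ratio was 0.08, with Tirap, which bridges TLR2 and TLR4 to MYD88, at 0.770-fold and the kinase Irak4 at 1.154-fold.

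Most of these genes past 2-fold between libraries 3 and 2 were on the lists of inhibitors and of targets. Of the 10 genes tested on the inhibitor list 7 were at least 2-fold higher in library 3. The NF-kB inhibitor Nfkbia had 205.5, 191.3 and 517.1 CPM in libraries 1, 2 and 3, and was 2.704-fold higher in library 3 than in library 2 (2.611–2.800). Nfkbiz, a nuclear IkB protein, had 21.6, 19.8 and 194.0 CPM, and was 9.821-fold higher (8.926–10.82). Both were high in library 3 alone. Nfkbid was 2.280-fold higher, Tnfaip3, which removes ubiquitin chains from signalling proteins, 4.009-fold, and Socs1, an inhibitor of cytokine signalling, 2.207-fold. The remaining 2 of the 7, the phosphatase gene Dusp1 at 35.7-fold and the mRNA decay factor gene Zfp36 at 6.752-fold, are also on the list of immediate early genes.

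Of 11 targets tested 6 were higher and 1 lower in library 3. Tnf had 11.9, 37.3 and 161.9 CPM, the chemokine gene Ccl3 90.1, 55.7 and 855.6, and Ccl2 8.935, 77.3 and 446.0. All 3 were highest in library 3. Ccl4 was 8.335-fold, Il1b 4.027-fold and Il1a 2.210-fold higher in library 3 than in library 2, and Ccl5 was at 0.261-fold. Among 10 transcription factors only Relb passed 2-fold, at 2.051-fold; Nfkb2, at 2.068-fold before 1 CPM was added, did not. Among 8 further co-receptors and trafficking proteins Slc15a3, a histidine and peptide carrier of endolysosomes, was 3.190-fold higher, with 205.5, 133.4 and 425.6 CPM, while Unc93b1, which brings the nucleic acid receptors to endosomes, was 1.303-fold higher.

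**Figure D3:**
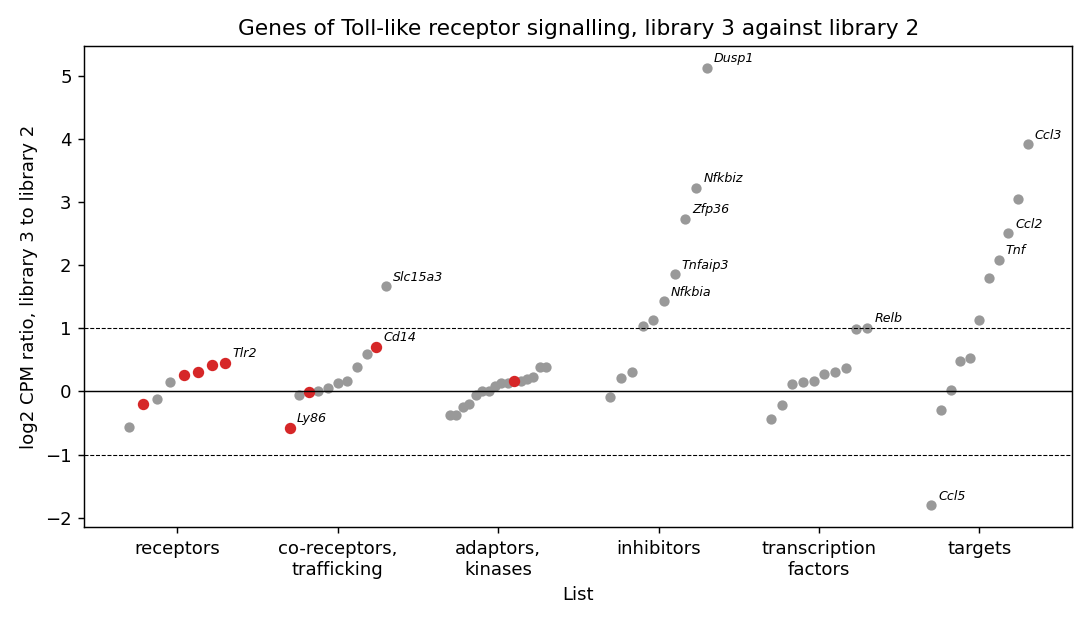
Log2 CPM ratio of library 3 to library 2 for the genes of Toll-like receptor signalling with at least 10 CPM, by list, each point 1 gene, red the genes described here and grey the others. Dashed lines mark 2-fold. No red point passes them, while 7 of 10 genes on the inhibitor list and 6 of 11 on the target list lie above. Over all genes 1.54% were called higher and 2.92% lower, and the lists were drawn up with earlier results of these data known.

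Tlr2 and Tlr3 both carry a match to the NF-kB consensus in the windows printed above, and their ratios of library 3 to library 2, 1.377 and 0.874, lay on opposite sides of 1. A match does not show binding, and whether NF-kB had a part in either ratio was not tested. Between library 2 and library 1 the 55 further genes tested gave 5 higher and 4 lower, against 5.49% and 4.82% of all genes. Higher were Dusp1, Tnf (3.132-fold), Ccl2 (8.648-fold), Ccl5 (2.112-fold) and Cxcl10 (4.305-fold, from 4 UMIs in library 1). Lower were Traf6 (0.396-fold), the ubiquitin ligase downstream of MYD88, Tollip (0.467-fold), Tnfaip3 (0.301-fold) and Il6 (0.272-fold). Between libraries 3 and 1 there were 15 higher and 1 lower among 56, against 3.71% and 6.34% of all genes, the lower one being Il6 at 0.391-fold.

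Within a library, cells with a UMI of 2 of the 10 genes were about as frequent as the product of the single shares gives. The ratio of observed to expected cells was taken for pairs with at least 5 expected cells, at 2000 UMIs. Its median was 1.012 over 24 pairs in library 1, 0.993 over 38 in library 2 and 1.016 over 38 in library 3. No pair had a counting interval above or below 1. These Poisson intervals leave out that both single counts are fixed, so they are too wide for pairs with a common gene such as Cd14 or Ly86. For such pairs they could hardly leave 1 in either direction. Ly86 was found in 96.6%, 98.5% and 95.6% of these cells, so a ratio well above 1 was not possible for its pairs. They are among the pairs counted. Over all pairs of genes found in at least 2% of cells the medians were 1, 0.999 and 0.9989, with quartiles from 0.9 to 1.095 in library 2. The pair farthest from 1 was Tlr1 with Tlr3 in library 2, at 0.548, which was at 1.04 in library 3. Tlr1 with Myd88 was at 0.69 and 0.65 in libraries 2 and 3.

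Partner genes showed the same. Tlr2 and Cd14 were found together in 338 cells of library 2, where 331.6 were expected, and in 512 of library 3, where 495.3 were. Tlr1 and Tlr2, which form a heterodimer, met in 29 cells of 31.15 expected and in 48 of 46.36. All 3 genes of lipopolysaccharide binding, Tlr4, Cd14 and Ly96, met in 1, 11 and 23 cells against 2.605, 11.56 and 19.37 expected. At 5000 UMIs per cell, kept by 2561 and 2246 cells of libraries 2 and 3, they met in 69 and 81 cells against 63.41 and 78.13. The ratios were 1.088 (0.8466–1.377) and 1.037 (0.8233–1.289), so an excess within these bounds was not detectable at this depth. Pearson's r of log counts between the same partners at 2000 UMIs was between −0.0149 and 0.0430 in libraries 2 and 3, and in library 1 it was −0.0829 for Tlr4 with Ly96 and −0.0683 for Tlr1 with Tlr2, each pair with 1 cell that had both. For Ly86 with Cd180 it was 0.0217 and 0.0127 in libraries 2 and 3. The most negative r was that of Cd14 with Ly86 in library 1, at −0.1352. In libraries 2 and 3 this pair had −0.0187 and −0.0072 at 2000 UMIs. At 5000 UMIs it had −0.0966 in library 2 and 0.0026 in library 3. So at 2000 UMIs r of this pair was below 0 in each library, though near 0 in library 3. At 5000 UMIs it was below 0 in library 2 but not in library 3. No interval is given for r. The cause was not tested.

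**Figure D4:**
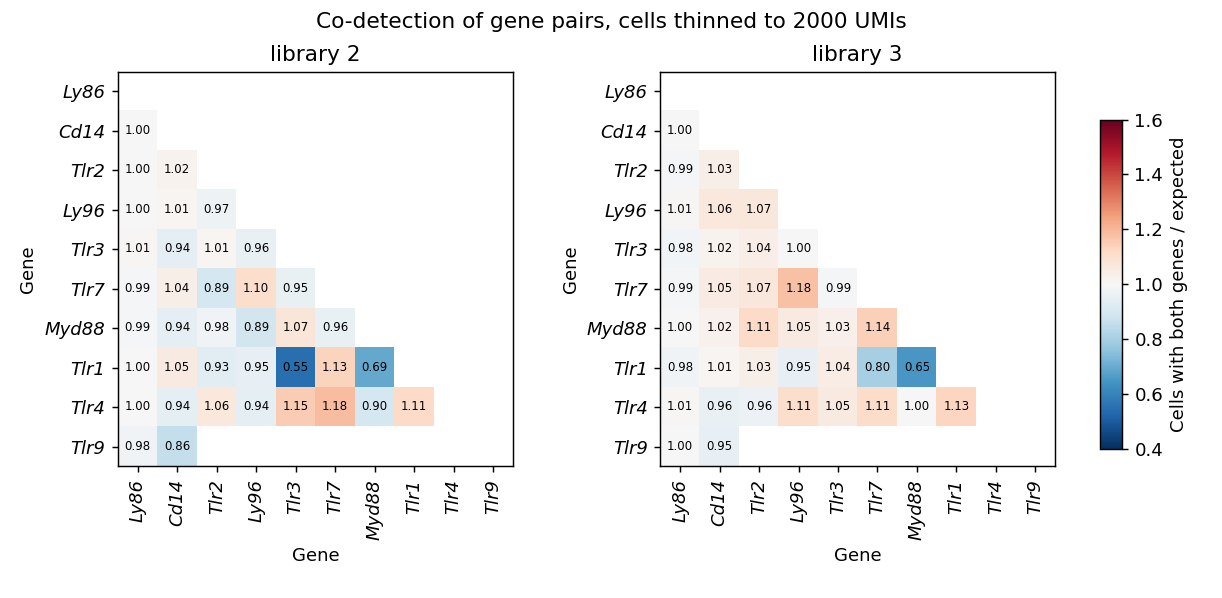
Number of cells with a UMI of both genes divided by the number expected from the single shares, for pairs with at least 5 expected cells, in libraries 2 and 3 after thinning to 2000 UMIs. Colour and printed value give the ratio, and blank squares had too few cells. Values run from 0.548 to 1.184 in library 2 and from 0.650 to 1.176 in library 3. No counting interval leaves out 1, though these intervals are too wide for pairs with a common gene. Pairs with Ly86 could not lie well above 1.

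Counting how many of the 10 genes a thinned cell showed, the mean was 2.429 in library 1, 2.194 in library 2 and 2.418 in library 3. Most often it was 2 genes, in 42.4%, 41.8% and 41.2% of cells. None of the 10 was seen in 1, 11 and 17 cells, against 2.034, 12.48 and 20.54 expected, and 4 genes in 49, 235 and 343 cells against 43.9, 257.3 and 344.2. Gaps were wider elsewhere. In library 3, 5 genes were seen in 86 cells against 66.6 expected and 3 genes in 951 against 993.6. In library 2, 3 genes were seen in 946 against 892.6. At 5000 UMIs the means were 3.341 and 3.689 in libraries 2 and 3, and no cell lacked all 10.

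The genes whose thinned counts followed a member most closely over cells were sought among 4836 genes found in at least 5% of cells, by the mean of Pearson's r in library 2 (3569 cells) and library 3 (3284 cells). For Ly86 these were Ccl12, a chemokine gene, with r of 0.124 and 0.103, Tmsb4x, an actin-binding peptide gene, with 0.0922 and 0.0847, and C1qb, a subunit of complement C1q, with 0.0867 and 0.0819. At 5000 UMIs Ccl12 had 0.135 and 0.145. For the other 9 genes the highest mean r was 0.0568, between Tlr2 and Dnajc11, and values this weak in sparse counts were not read further. The genes next to Dnajc11 were Nfkbia and Lpl for Tlr2, Cd9 and Rab6b were among those for Cd14, and the leading 3 were Dgkd, Smpd2 and Ctsd for Ly96 and Stx5a, Gtf3a and Rtcb for Myd88. For the receptors they were Gtf2f1, Nop56 and Capza1 (Tlr1), Tmub2, Rab3gap1 and 5430427O19Rik (Tlr3), Ddx3y, Farsa and Hirip3 (Tlr4), Smad7, Llph and Ikzf1 (Tlr7), and Fnbp4, Fes and Tet3 (Tlr9). At 5000 UMIs some of these r fell below 0 in both libraries, such as Stx5a with Myd88 at −0.0037 and −0.0390. Others stayed above 0, such as Nfkbia with Tlr2 at 0.0557 and 0.0274. Cells of a library share its depth and its free RNA.

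Cells were then split within each library by the summed UMIs of 19 immediate early genes, which hold none of the 10, and the cells highest and lowest in this sum, equal in number and with as many again between them, were compared at 2000 UMIs. In library 3, where the list gave 82.6 UMIs per cell in the upper and 34.34 in the lower cells (1094 each), Cd14 was higher in the upper cells and Ly86 lower. Cd14 had 1.223 UMIs per cell (1.158–1.290) in the upper and 1.069 (1.008–1.132) in the lower cells, 1.145-fold (1.057–1.239). Ly86 had 3.093 (2.990–3.199) and 3.586 (3.475–3.700), 0.863-fold (0.8236–0.9034). These 2 of 9 genes had intervals apart, against 4.26% of all genes, and the 7 other genes had overlapping intervals. Intervals part more readily at high counts, and these 2 had the most, 1338 and 1169 UMIs for Cd14 and 3384 and 3923 for Ly86. Tlr2, next in count, had 305 and 278 UMIs and a ratio interval of 0.9295–1.295, which holds the ratio of Cd14. The share over all genes includes sparser genes. Median depth before thinning was 6032 UMIs in the upper and 5023 in the lower cells, and its part in the difference was not tested.

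In library 2 none of the 9 genes had intervals apart at 2000 UMIs, against 0.964% of all genes, with 1189 cells on each side and 9.606 and 2.919 list UMIs per cell on the 2 sides. Cd14 was at 1.106-fold (1.009–1.214) and Ly86 at 0.977-fold (0.9411–1.013). At 5000 UMIs, with 853 cells on each side, both parted there too, Cd14 with 2.015 and 1.621 UMIs per cell (1.243-fold, 1.157–1.335) and Ly86 with 12.33 and 13.43 (0.918-fold, 0.8938–0.9426). Library 3 at this depth gave 1.109-fold for Cd14 and 0.798-fold for Ly86, in the same directions. The share of all genes with intervals apart is not given at 5000 UMIs. In library 1, with 136 cells on each side, 0 of the 7 genes with enough UMIs had intervals apart, against 0.761% of all genes. There Cd14 was at 1.242-fold (0.9952–1.551), Ly86 at 0.909-fold (0.8080–1.023) and Tlr2 at 1.870-fold (1.102–3.250). These splits compare cells of 1 library, which are not replicates.

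At 2000 UMIs only library 2 had at least 50 cells on each side for splits by proliferation and by interferon-induced genes. Cells with at least 2 UMIs of 10 proliferation genes, Mki67, Top2a and Cdk1 among them, numbered 1038, and cells with none 1371. Between these 2 sets 0 of 9 genes had intervals apart, where 2.91% of all genes did. Cd14 was at 0.951-fold (0.8646–1.046) and Ly86 at 1.032-fold (0.9942–1.071). Median depth before thinning was 7060 and 5765 UMIs, and its part was not tested. At 5000 UMIs the same rule gave 1735 and 268 cells, so cells with none at 2000 UMIs may still hold these transcripts. At that depth Tlr2 was at 0.857-fold (0.7185–1.028) and Myd88 at 0.786-fold (0.6162–1.014), and every ratio interval held 1. In the interferon split at 2000 UMIs, 115 cells had at least 3 UMIs of 12 interferon-induced genes and 2121 cells had none. Between these sets 0 of 9 genes had intervals apart, against 1.49% of all genes. Myd88, whose window printed above holds the interferon-stimulated response element, was at 1.129-fold (0.5736–2.018), Tlr3 at 1.291-fold (0.6932–2.218) and Tlr7 at 1.195-fold (0.6427–2.050). These intervals are wide, with 12, 14 and 14 UMIs in the 115 cells. Cd14 was at 0.783-fold (0.6087–0.9933). At 5000 UMIs the cut of 3 UMIs was kept and took in more cells, so the sets differ from those at 2000 UMIs. It gave 462 and 706 cells in library 2, and 152 and 1037 in library 3. There Myd88 was at 0.834-fold (0.6483–1.067) in library 2 and 0.692-fold (0.4550–1.015) in library 3, and Tlr3 at 1.085-fold (0.8466–1.386) and 1.383-fold (0.9843–1.905). Both genes had ratio intervals that held 1 and stayed below 2-fold in either library. Tlr7, the receptor of single-stranded RNA, was at 1.333-fold (1.053–1.688) in library 2, though the intervals of its 2 levels overlapped, and at 1.155-fold (0.8489–1.545) in library 3. Cd14 was at 0.916-fold (0.8365–1.003) and 0.973-fold (0.8768–1.077), so its ratio interval left out 1 only at 2000 UMIs, where the upper set was smaller.

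**Figure D5:**
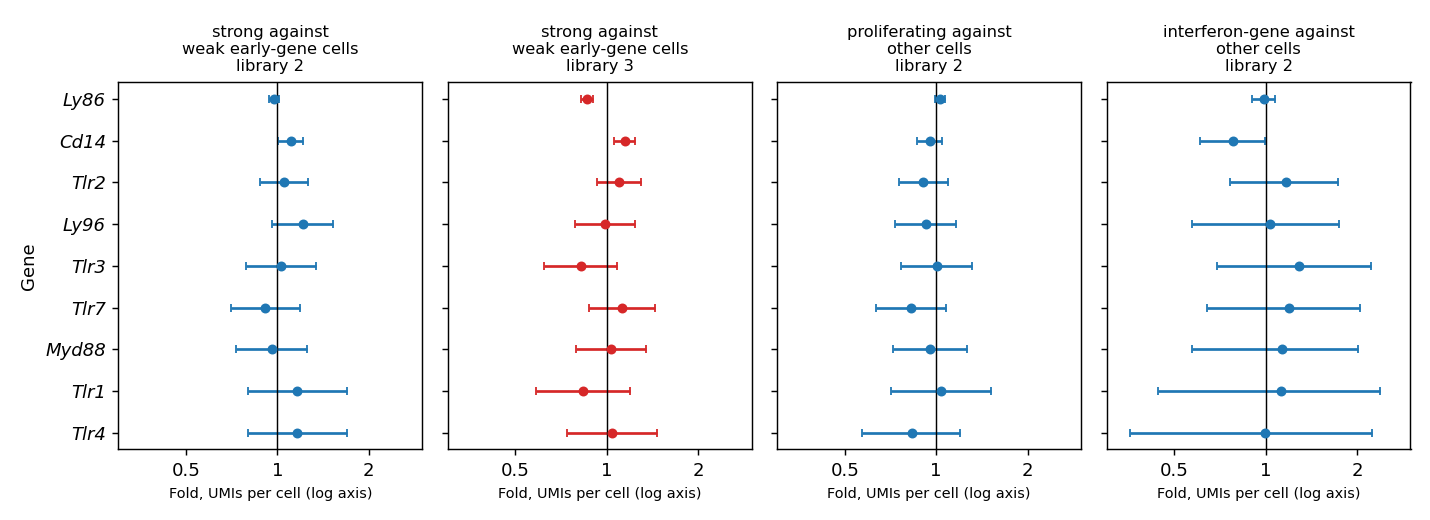
Ratio of UMIs per cell for 9 genes between cells split within a library, at 2000 UMIs, on a log axis, with 95% counting intervals of the ratio. In library 3 Cd14 lies above and Ly86 below 1 in cells strong in early genes. For proliferating cells all 9 intervals hold 1, and for interferon-gene cells all but that of Cd14. At 5000 UMIs, where the same cut takes in more cells, the interval of Cd14 holds 1.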

How the data were processed

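Droplet-based 3′ sequencing (10x Genomics Chromium, reagent version 3 per the methods and 3.1 per the labels) was run on 3 libraries. The authors deposited 1 matrix for all libraries, which holds raw UMI counts, not normalized, and lists of its genes and barcodes. The submitters' processing notes name Cell Ranger 2.1.1 and mm10. That software version predates both reagent versions named, and the conflict was not resolved. Total counts were 1343055, 24097543 and 19769170 UMIs in libraries 1, 2 and 3. The methods state a gate against doublets in the sort, which cannot remove doublets that form in droplets; none were sought here, and all deposited cells were used unless thinned.

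Counts were summed per library and divided by its total (CPM). Intervals are exact at 95% (Poisson for sums, Clopper-Pearson for shares, conditional binomial for ratios) and cover counting error only. With 1 library per time point no test was made. Thinning drew 2000 UMIs per cell without replacement (seed 1). Genes in a split needed at least 20 UMIs over both sides. The 10 genes, the lists and the splits were chosen with earlier results of these data known. Genes were named if they belonged to the 10, were family or partner genes, passed 2-fold in a pathway list, or were among the 3 most like a member, of which 1 is not reported here; values of others serve as examples and were chosen after they were seen. The steps were tested on simulated data. Alternatives were other scalings, cell filters, thresholds, depths and seeds. Computation used pandas 2.3.3, scipy 1.17.1 and numpy 2.4.6 under Python 3.11.15.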

Additional observations from a re-analysis of the deposited data

How the results depend on the processing

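No paired analysis was possible because each time point has 1 library. Of 470 values recomputed under alternatives, 366 stayed within the limits set for each kind of value, and 104 moved. No CPM ratio whose interval left out 1 changed sign under a scaling or cell filter. Ratios whose interval held 1 did under some scalings: Tlr1, Tlr2 and Myd88 between libraries 2 and 1, Tlr4 and Cd14 between 3 and 1 (Cd14 from log2 −0.08 to 0.04 when centred), and Tlr9 and Ly96 between 3 and 2. At a threshold of 1.5-fold, 3 genes were lower in library 2 than in library 1 (Tlr3, Tlr7 and Cd14). There was 1 lower in library 3 than in library 1 (Tlr3) and 1 higher in library 3 than in library 2 (Cd14). No share of all genes called is given for this threshold or for the other alternatives of this comparison. Among all genes, the ratios of Tlr3, Tlr7 and Cd14 between libraries 2 and 1 stood at percentiles 16.16, 12.76 and 9.96. That of Tlr3 between libraries 3 and 1 stood at percentile 11.01, and that of Cd14 between libraries 3 and 2 at 97.61. Tlr9 alone was called, 1 gene lower in library 2 than in library 1, with totals without mitochondrial, ribosomal and early genes, with the mean over cells and with no minimum CPM, and 1 lower in library 3 than in library 1 with the mean over cells; it rests on 13 UMIs in library 1. The median co-detection ratio of library 2 was 1.032 without thinning. Between cells high and low in early genes, another random draw gave 1 gene in library 1 (Ly86) and 1 in library 2 (Cd14), and 5000 UMIs gave 2 in library 2 (Cd14 and Ly86). Between interferon-gene and other cells of library 2 another draw gave 1 (Tlr3). For these draws and this depth no share over all genes is given, and the cause of these changes was not tested. The number of genes whose shares of cells had intervals apart between libraries 2 and 3 was 4, against 23.8% of all genes. Under alternatives this number was 3 to 5, for which no share over all genes is given. Leaving out cells whose barcode occurs under more than 1 suffix, an alternative chosen after seeing the data, changed no count of called genes. Depth limits library 1 most, where Tlr1, Tlr4 and Tlr9 had 36, 45 and 13 UMIs.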
